A study of Mus musculus with 12 samples.

Results

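Sox9 and 9 further transcription factors of mesenchymal cells (Sox4, Sox11, Twist1, Twist2, Snai1, Snai2, Zeb1, Zeb2 and Prrx1) were followed in a mouse hippocampal cell line exposed to thyroid hormone, a glucocorticoid or both. The 10 genes were chosen by name, and every array probe annotated to 1 of them was taken. They were represented by 26 of the 45281 probes, and they are 10 of the 19057 genes with a symbol on the array.

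Gene expression was measured in HT-22 cells, a single mouse hippocampal line immortalized with the SV40 T antigen, on Illumina Mouse WG-6 v2 bead arrays. There were 4 groups of 3 arrays. Cells received T3 and CORT together (30 nM T3 plus 100 nM CORT), CORT alone (100 nM), T3 alone (30 nM) or vehicle, for 4 h in medium without serum. T3 is triiodothyronine, the active thyroid hormone, and CORT is corticosterone, the main glucocorticoid of rodents. Vehicle was 0.03% DMSO with 0.001% ethanol, and before treatment all groups had been grown in medium whose serum was stripped of thyroid and steroid hormones. The design asks whether the hormones given together changed a gene differently from each hormone alone. The study's methods state that treatments were done in triplicate. How far the 3 samples of a group were separate experiments (days or passages) is not given in the sources used here, so the p-values measure the spread between these samples. The slide of each array was likewise not given.

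The genes belong to families that set up and keep the mesenchymal state, in which cells are loosely attached and can migrate. SNAIL and ZEB proteins are zinc finger repressors that bind E-boxes in promoters of epithelial genes such as E-cadherin, TWIST proteins are basic helix-loop-helix factors, and PRRX1 is a homeodomain protein of limb and facial mesenchyme. Together they are known as drivers of epithelial-to-mesenchymal transition. SOX9 is a high-mobility-group factor that directs cartilage formation and, in the brain, is found in neural progenitors and astrocytes. SOX4 and SOX11 form the SoxC group, which acts in neuronal differentiation and also in mesenchymal tissues. T3 and CORT act through nuclear receptors that bind DNA, the thyroid hormone receptors and the glucocorticoid and mineralocorticoid receptors.

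Signals are given in normalized intensity units, and a probe was called detected at or above 71.4 units, a limit estimated from the spread of the dim probes. Of all probes, 25122 (55.5%) reached it on at least 3 of the 12 arrays and were tested, and so did 19 of the 26 probes of the 10 genes, with at least 1 probe for each gene. The 7 untested probes were 3 for Sox11, 3 for Zeb2 and 1 for Zeb1. Differences are log2 fold changes from a limma model of all 4 groups, and a probe was called changed at an adjusted p (Benjamini-Hochberg over the 25122 probes) below 0.05. The half-width of the 95% interval of a difference between groups was 0.19 on the log2 scale at the median probe. Arrays of 1 group correlated at 0.992 to 0.997 over all probes, and the number of arrays sets this precision.

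Klf9, a transcription factor induced by both hormones, was 1.62 higher in T3, 1.12 higher in CORT and 2.46 higher in T3+CORT cells than in vehicle on the log2 scale (limma, adjusted p = 1.69e-09, adjusted p = 3.76e-08 and adjusted p = 3.26e-13). The line was labelled a hippocampal neuron. Of 10 neuronal markers on the array, 2 (Eno2 and Syp) were above the limit on every array, Nefl and Snap25 were below it on all 12, and Stmn2 passed it on 2. Tubb3 was above it on 11 arrays, Dcx on 10, Map2 on 9, Nefm on 4 and Rbfox3 on 3, each averaging under 90 units in every group. By contrast, 11 of 11 fibroblast and mesenchymal markers, a list that includes Twist1 and Prrx1 themselves, were above the limit on all arrays. In a longer list of mesenchymal genes, 21 of the 26 on the array were above it on every array. In that list Tagln and Postn were below the limit on all 12 arrays, and Fap and Lum passed it on 1. The neuronal markers were thus in part at or below the limit, and the cells are called HT-22 cells here. The summed signal of the 10 neuronal markers was 774 to 809.5 units in T3+CORT, 766 to 775 in CORT, 791 to 832 in T3 and 748 to 822 in vehicle arrays. The fibroblast and mesenchymal sum was 22822 to 24993 units in T3+CORT, 26404 to 27942 in CORT, 24065 to 27412 in T3 and 23458 to 26558 in vehicle arrays. In bulk RNA such as this, fewer cells of a kind and less RNA per cell cannot be told apart.

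**Figure D1:**
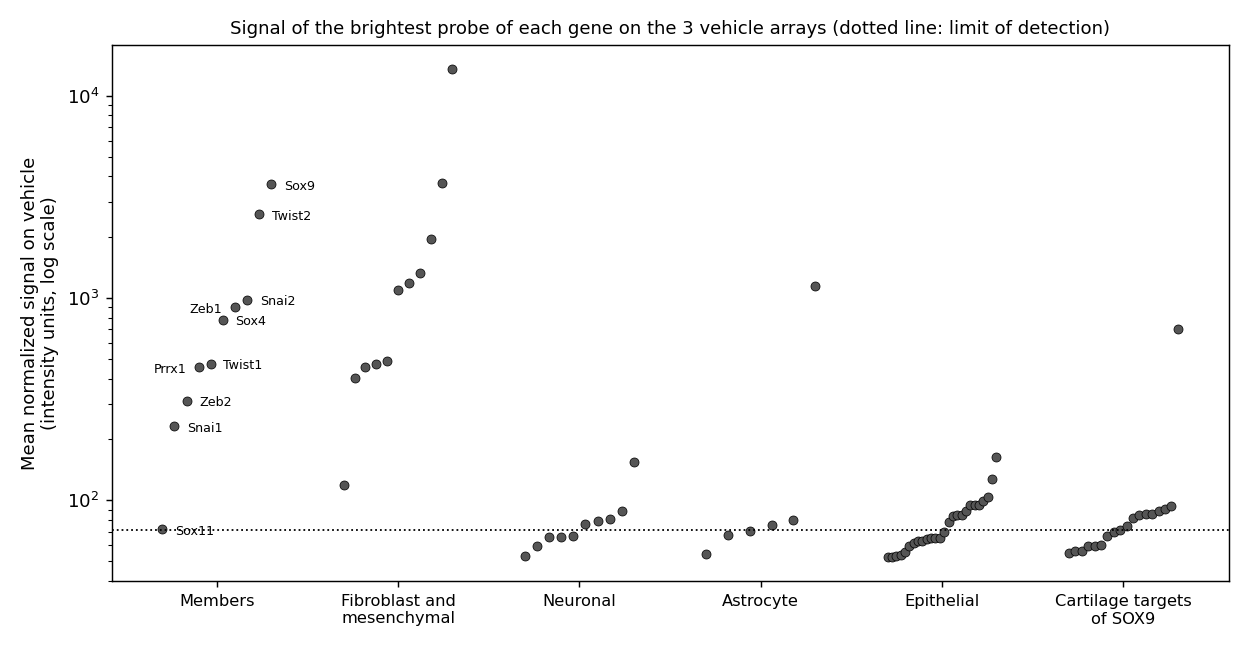
Mean normalized signal on the 3 vehicle arrays (log scale, intensity units) of the brightest probe of each of the 10 genes and of the marker lists. Each point is 1 gene, and the dotted line is the limit of detection of 71.4 units. Probes differ in affinity, so points are read against the line and not against each other. All 11 fibroblast and mesenchymal markers lie above the line, while the neuronal markers lie on both sides of it.

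The genes called in at least 1 comparison were Sox9, Twist1, Snai2, Zeb2 and Prrx1. With T3+CORT the probes of Sox9, Twist1 and Snai2 were lower than with vehicle, with CORT those of Twist1 and Snai2 were lower and that of Zeb2 was higher, and with T3 alone none was called. T3 alone changed 0 of the 19 tested probes, beside 0.0637% of all tested probes (16 probes). In that comparison 3 of the 19 had an unadjusted limma p under 0.05. An unequal-variance test of the linear signals likewise called 0 of the 19 after adjustment, with 2 at an unadjusted p under 0.05. That test also called 0 of all tested probes after adjustment, so its 0 of 19 says little. CORT alone changed 3 of 19 probes, beside 13.4% of all tested probes, with 1 higher (6.45% of all) and 2 lower (6.93% of all). Against vehicle, T3+CORT changed 4 of 19 (13.7% of all probes), every one of the 4 lower (6.91% of all). Against CORT, T3+CORT changed 3 of 19, all lower, where 0.362% of all tested probes were called and 0.279% were lower. Both Sox9 probes were among these 3, and the study had already listed Sox9 as synergistically repressed in these same arrays. Against T3, T3+CORT changed 6 of 19 (14.9% of all probes), with 1 higher (7.38% of all) and 5 lower (7.52% of all). At the thresholds that the study set against vehicle, an unadjusted p under 0.02 with a change of at least 1.5-fold, applied here to the limma fit, 0 of 19 were called with T3, 0 with CORT and 2 with T3+CORT relative to vehicle (0.0398%, 1.7% and 1.64% of all tested probes). For T3+CORT against each hormone the study set no fold limit, and at an unadjusted p under 0.02 there were 5 of 19 probes in T3+CORT versus CORT (3.8% of all) and 8 in T3+CORT versus T3 (20.7% of all). With the 1.5-fold limit added, 1 was called in T3+CORT versus CORT (0.143% of all), 3 in T3+CORT versus T3 (1.84%) and 1 in the interaction (0.199%). The share in CORT versus vehicle (3 of 19) was near that of the whole array. The median log2 fold change of the 19 probes was -0.13 for T3+CORT versus vehicle and -0.12 for T3+CORT versus CORT, where the medians of all tested probes were -0.003 and 0.003. All comparisons with vehicle share the vehicle arrays, and all 3 that involve T3+CORT share its arrays, so they are not independent of each other.

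**Figure D2:**
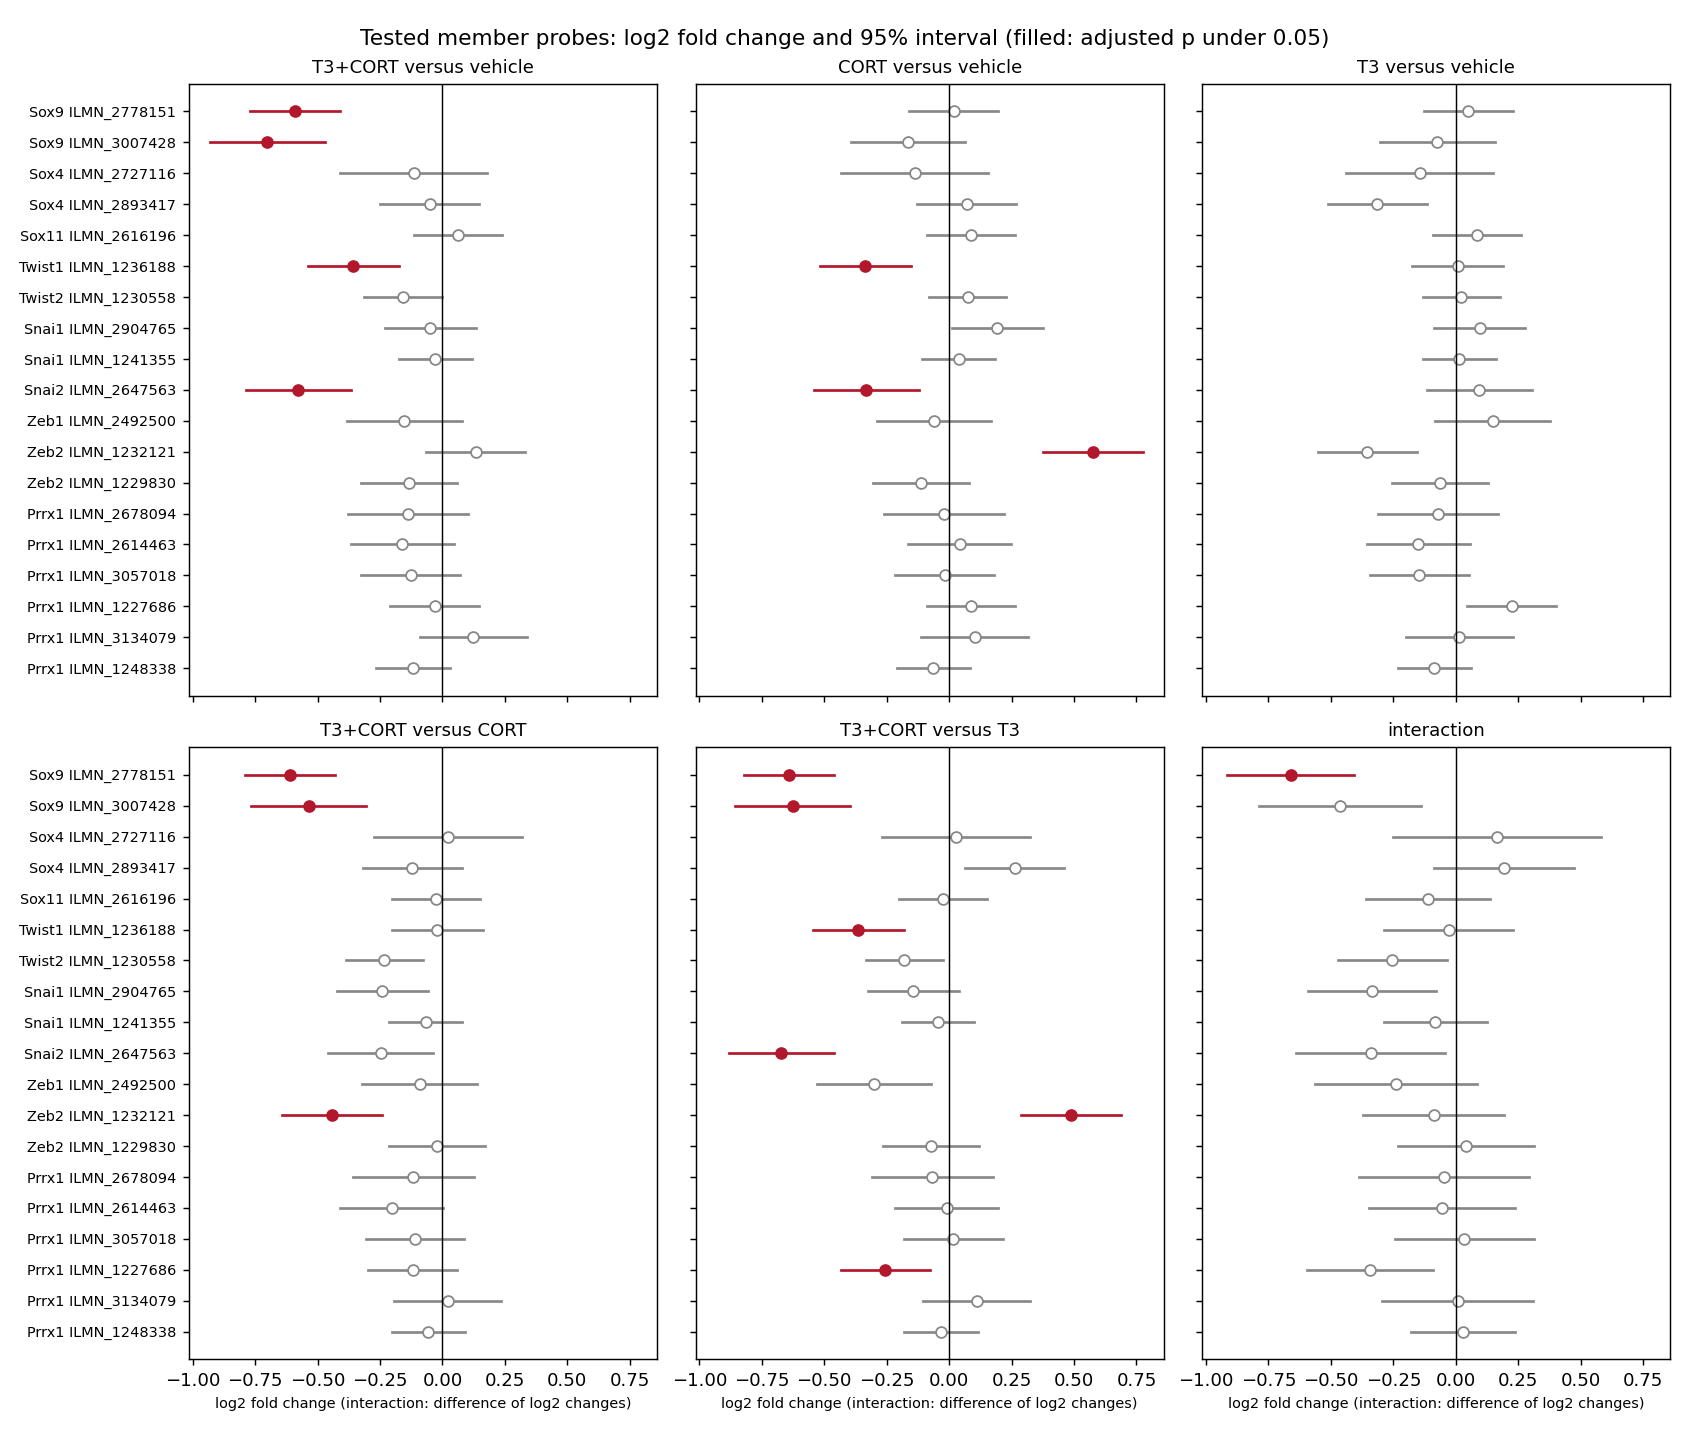
Log2 fold change (points) and 95% interval (bars) of the 19 tested probes in each of the 6 comparisons. Filled points have an adjusted limma p under 0.05. The interaction is the T3+CORT change minus the sum of the changes with each hormone alone. Both Sox9 probes are lower with T3+CORT in each comparison of it, and neither is called with CORT or T3 alone.

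Sox9 fell when both hormones were given together, at both of its probes, and was not called with either hormone alone. The study's own list from these same arrays already named Sox9 as synergistically repressed by T3+CORT, so this direction was known beforehand. Sox9 met the study's rule of a call with both hormones and none with either alone, which is no test of an interaction. At probe ILMN_2778151 the 3 T3+CORT arrays had 2403.7, 2313.8 and 2548 units, the CORT arrays 3248.3, 3808.9 and 4062.3, the T3 arrays 3604.9, 3763 and 3968, and the vehicle arrays 3443.2, 3756.5 and 3744.1. Every T3+CORT array lay below every array of the other 3 groups, whose ranges overlapped. The means were 2422 ± 118 in T3+CORT, 3706.5 ± 417 in CORT, 3779 ± 182 in T3 and 3648 ± 177 units in vehicle (SD, n = 3 each). The combined treatment lowered the signal to 0.664 of vehicle, a log2 fold change of -0.59 (95% interval -0.77 to -0.41, limma, adjusted p = 0.000133). Relative to CORT the change was -0.61 (adjusted p = 0.000925) and relative to T3 it was -0.64 (adjusted p = 5.35e-05). With CORT alone the difference from vehicle was 0.02, with an interval of -0.16 to 0.20, and with T3 alone it was 0.05, with an interval of -0.13 to 0.23.

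The difference of differences was tested for this probe. The combined change minus the sum of the separate changes was -0.66 on the log2 scale (SE 0.12, 95% interval -0.91 to -0.41, limma, adjusted p = 0.0419). It was the only probe of the 19 called in this test, in which 0.0677% of all tested probes and, by the brightest probe of each gene, 0.0957% of all tested genes were called. The call was lost, at values of -0.70 to -0.59 and adjusted p of 0.0621 to 0.195, when any vehicle array, any T3+CORT array, CORT replicate 2, CORT replicate 3 or T3 replicate 3 was left out.

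At the other Sox9 probe, ILMN_3007428, the T3+CORT arrays had 159.9, 153.2 and 163.8 units, the CORT arrays 209.9, 227 and 256.5, the T3 arrays 259, 214.3 and 266.2, and the vehicle arrays 222.1, 272.9 and 284.2. Here too each T3+CORT array lay below all 9 others. The log2 fold change was -0.70 against vehicle (SE 0.11, limma, adjusted p = 0.000263), -0.54 against CORT (adjusted p = 0.0335) and -0.63 against T3 (adjusted p = 0.00068). CORT alone gave -0.17 (95% interval -0.39 to 0.06) and T3 alone -0.07. The interaction, -0.46 (95% interval -0.79 to -0.14), did not pass (adjusted p = 0.626). The call against CORT was lost, at -0.56 to -0.46 and adjusted p of 0.0548 to 0.233, without vehicle replicate 2, CORT replicate 2 or 3, or any T3+CORT array. Over the 12 arrays, which share the same 4 groups, the probes correlated at 0.93, and at 0.67 once each group's mean was taken out. Both probes are annotated to the same gene and were measured on the same RNA, so they are not separate samples.

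**Figure D3:**
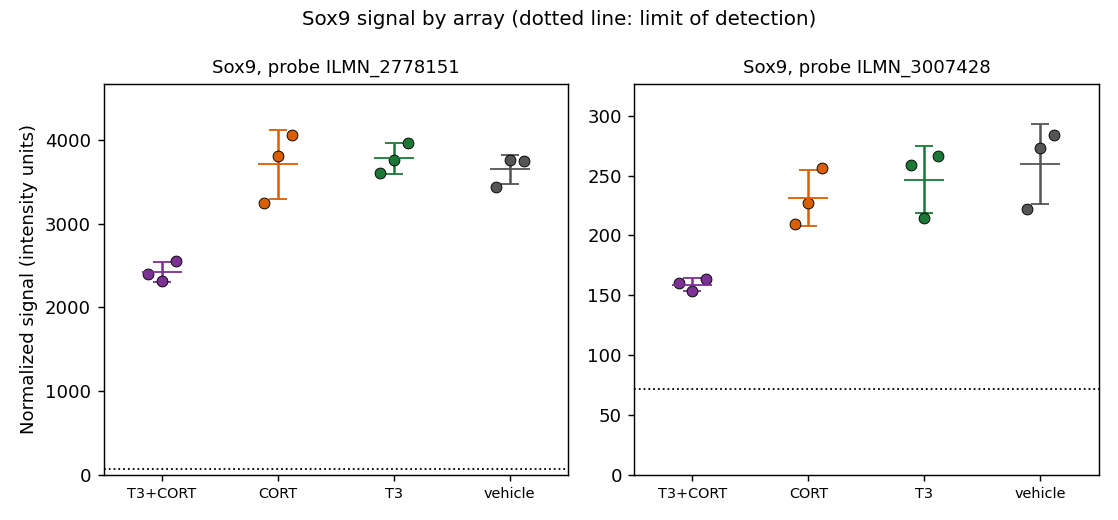
Normalized signal (intensity units) of the Sox9 probes on each array, by group. Points are arrays, the long horizontal line is the mean, bars are 1 SD (n = 3), and the dotted line is the limit of detection of 71.4 units. The T3+CORT arrays lie below all others at both probes (2313.8 to 2548 units at the left and 153.2 to 163.8 at the right).

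SOX9 also marks neural progenitors and astrocytes, and both lists were examined beside it. Of 7 neural progenitor markers, 3 were tested, 0 were above the limit on all arrays and 0 were called in any comparison. Their summed signal was 441 to 479 units in T3+CORT and 462 to 490 in vehicle arrays, and all groups overlapped. Of the 6 astrocyte genes, 2 (Slc1a3 and Slc1a2) were above the limit on all arrays, S100b was below it on all 12 and Gfap passed it on 7. The summed signal of the 6 was 1234 to 1270.1 units in T3+CORT, 1335 to 1560.5 in CORT, 1421 to 1549.6 in T3 and 1437 to 1526.5 in vehicle arrays, lower in T3+CORT than in the other groups without overlap. Slc1a3 made up most of this sum, and the median log2 fold change of the 5 tested genes was 0.03 in T3+CORT versus vehicle. Slc1a3, a glutamate transporter, fell with T3+CORT relative to vehicle (-0.38, limma, adjusted p = 0.00718), with 879 ± 22.9 units in T3+CORT, 1064 ± 117 in CORT, 1149 ± 56.6 in T3 and 1143 ± 44.8 in vehicle cells (SD, n = 3 each). Aldh1l1, near the limit, was instead higher with T3+CORT (0.37, adjusted p = 0.00297) and with CORT (0.25, adjusted p = 0.0337). The part of such cells in the Sox9 difference was not tested.

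The probes whose signal followed Sox9 most closely were ranked by their correlation with ILMN_2778151 over the 12 arrays, among tested probes with 1 gene symbol outside the 10 genes. The 5 highest were Eno3, the muscle enolase (r = 0.94), Erf, an ETS-family repressor (0.93), Rdm1 (0.92), Cd82, a tetraspanin (0.92), and Cfap53, a protein of cilia (0.90). Eno3 averaged 228 units in T3+CORT, 302 in CORT, 304 in T3 and 284 in vehicle cells, and it was lower with T3+CORT than with vehicle (log2 fold change -0.32, limma, adjusted p = 0.0306). The 3 most opposed were Primpol, a primase-polymerase (r = -0.92), Asb13 (-0.91) and Osgep, an enzyme of transfer RNA modification (-0.91). Osgep averaged 2244 ± 7.39 units in T3+CORT, 1665 ± 123 in CORT, 1684 ± 115 in T3 and 1571 ± 36.1 in vehicle cells (SD, n = 3 each). It rose with T3+CORT relative to vehicle (0.51, adjusted p = 0.000296), CORT (0.43, adjusted p = 0.0165) and T3 (0.42, adjusted p = 0.00172). Among the other 9 genes, Twist2 was closest to Sox9 (r = 0.86), followed by Snai2 (0.70) and Twist1 (0.60), and Zeb2 was at -0.16. These coefficients describe 12 arrays in 4 shared groups and have no test.

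Neither SoxC gene was called in any comparison. Sox4 signal at ILMN_2727116 ranged from 566.5 to 963.6 units over the 12 arrays, with a standard error of 0.14 on a log2 fold change. At its dimmer probe, ILMN_2893417, the T3 arrays had 85.8, 88.4 and 92.7 units, against 104.9, 101.2 and 127.1 in vehicle, with no overlap. That difference was -0.31 and did not pass (limma, adjusted p = 0.611). T3+CORT versus T3 was 0.26 at this probe and did not pass (adjusted p = 0.0697), except without vehicle replicate 3 (adjusted p = 0.0497). The probes correlated at -0.03 over the 12 arrays, so the Sox4 probes did not vary together. Sox11 lay at the limit of detection, with 68.7 to 87.2 units at ILMN_2616196 and 10 of 12 arrays above the limit, and its 3 other probes were below it.

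Of the TWIST genes, Twist1 was called with CORT and Twist2 in no comparison. Twist1 fell with CORT whether or not T3 was present. Its probe ILMN_1236188 had 370.7, 389.4 and 352.1 units in T3+CORT, 355.8, 370.9 and 401.7 in CORT, 459.6, 456.8 and 515.8 in T3, and 472.6, 474.9 and 475 in vehicle arrays. The 6 arrays that received CORT lay below the 6 that did not. Against vehicle the log2 fold change was -0.34 with CORT (SE 0.09, limma, adjusted p = 0.014) and -0.36 with T3+CORT (adjusted p = 0.00942), and against T3 it was -0.36 with T3+CORT (adjusted p = 0.00774). T3+CORT and CORT differed by -0.02, with a 95% interval of -0.20 to 0.16. Without CORT replicate 1 the CORT value was -0.30 and no longer passed (adjusted p = 0.0634).

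Twist2, a close relative of Twist1 in dermal and skeletal mesenchyme, had 2261.7, 2377.7 and 2329.7 units in T3+CORT, 2717.8, 2731.2 and 2735.6 in CORT, 2471.9, 2689 and 2739.6 in T3, and 2563.3, 2689 and 2526.1 in vehicle arrays (ILMN_1230558). The T3+CORT arrays lay below all others, as for Sox9. The log2 fold changes were -0.16 against vehicle (limma, adjusted p = 0.175), -0.23 against CORT (adjusted p = 0.346) and -0.18 against T3 (adjusted p = 0.111), and none passed. Whether Twist2 and Twist1 differed in response was not tested.

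Promoter windows of the RefSeq table (mouse build GRCm38.p6, 250 bases before an annotated start) were found for 7 of the 10 genes. Sox9, Snai2 and Zeb1 had no window there and were not searched. The windows found were searched on both strands for 5 short motifs. The glucocorticoid receptor half-site was AGAACA. The thyroid hormone receptor half-site was AGGTCA. The E-box bound by SNAIL and ZEB proteins was CAGGTG, which reads CACCTG on the opposite strand. The TATA box was TATAAA. The box bound by the factor NF-Y was CCAAT, which reads ATTGG on the opposite strand. None of these motifs overlaps another in the windows shown. Of all 32851 windows of this length in the table, 16.1% held the glucocorticoid half-site, 14% the thyroid half-site, 17.2% the E-box, 12.4% the TATA box and 33.8% the NF-Y box. The windows of Twist1 and Zeb2 are shown because these genes followed CORT in opposite directions, and that of Snai1 because it holds the E-box. Capitals mark the matches. The Twist1 window is chr12:33957421-33957670 on the plus strand, the Zeb2 window, at the most upstream of its starts, is chr2:45117443-45117692 on the minus strand, and the Snai1 window is chr2:167537945-167538194 on the plus strand.
Twist1: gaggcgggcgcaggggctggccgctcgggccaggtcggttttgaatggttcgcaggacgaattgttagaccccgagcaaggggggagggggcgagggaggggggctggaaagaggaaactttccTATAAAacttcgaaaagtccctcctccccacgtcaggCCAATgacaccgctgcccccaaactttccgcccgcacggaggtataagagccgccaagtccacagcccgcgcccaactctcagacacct
Zeb2: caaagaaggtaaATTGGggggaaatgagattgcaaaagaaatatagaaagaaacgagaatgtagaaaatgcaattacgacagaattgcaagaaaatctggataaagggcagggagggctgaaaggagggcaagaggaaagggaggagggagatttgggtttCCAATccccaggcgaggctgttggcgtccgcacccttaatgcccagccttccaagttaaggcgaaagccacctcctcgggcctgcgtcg
Snai1: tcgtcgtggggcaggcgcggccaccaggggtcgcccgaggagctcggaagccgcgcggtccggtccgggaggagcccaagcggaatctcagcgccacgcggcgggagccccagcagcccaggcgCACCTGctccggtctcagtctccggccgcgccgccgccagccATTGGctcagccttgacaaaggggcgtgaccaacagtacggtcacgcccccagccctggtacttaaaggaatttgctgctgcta
In the Twist1 window TATAAA began 126 bases and CCAAT 89 bases before the start. The Zeb2 window held ATTGG 238 bases and CCAAT 89 bases before the start, and the Snai1 window held CACCTG at 126 and ATTGG at 84 bases. None of these 3 windows held either hormone receptor half-site as spelled above. Among the other windows, that of Sox4 held the thyroid half-site AGGTCA 162 bases before the start. A match is only a run of letters, and its absence says nothing about where a receptor binds.

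Of the SNAIL genes, Snai2 fell with CORT and with T3+CORT, while Snai1 was not called in any comparison. Snai2, known as SLUG, had 641.7, 622 and 703.5 units in T3+CORT, 865.2, 715.8 and 757.1 in CORT, 1174.5, 909.8 and 1062.7 in T3, and 957.1, 985.8 and 989.3 in vehicle arrays (ILMN_2647563). The T3+CORT arrays lay below the CORT arrays, which lay below the T3 and vehicle arrays, and those 2 groups overlapped. The log2 fold change against vehicle was -0.33 with CORT (SE 0.10, limma, adjusted p = 0.0332), -0.58 with T3+CORT (adjusted p = 0.000678) and 0.09 with T3. T3+CORT was -0.67 against T3 (adjusted p = 0.000162). The step between T3+CORT and CORT, -0.25, did not pass (adjusted p = 0.544), nor did the interaction, -0.34 (adjusted p = 0.827). The CORT call was lost, at -0.35 to -0.27 and adjusted p of 0.077 to 0.147, without any 1 vehicle array, CORT replicate 2 or CORT replicate 3.

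Snai1, known as SNAIL, had 216, 234.9 and 221.4 units in T3+CORT, 272.8, 276.4 and 246 in CORT, 248, 258.9 and 235.8 in T3, and 218.4, 235.5 and 241.3 in vehicle arrays (ILMN_2904765). The CORT arrays lay above the vehicle arrays and above the T3+CORT arrays without overlap. Neither difference passed, at 0.19 for CORT versus vehicle (limma, adjusted p = 0.159) and -0.24 for T3+CORT versus CORT (adjusted p = 0.454). A dimmer Snai1 probe, ILMN_1241355, stayed between 65.6 and 74.8 units and passed the limit on 3 of 12 arrays.

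**Figure D4:**
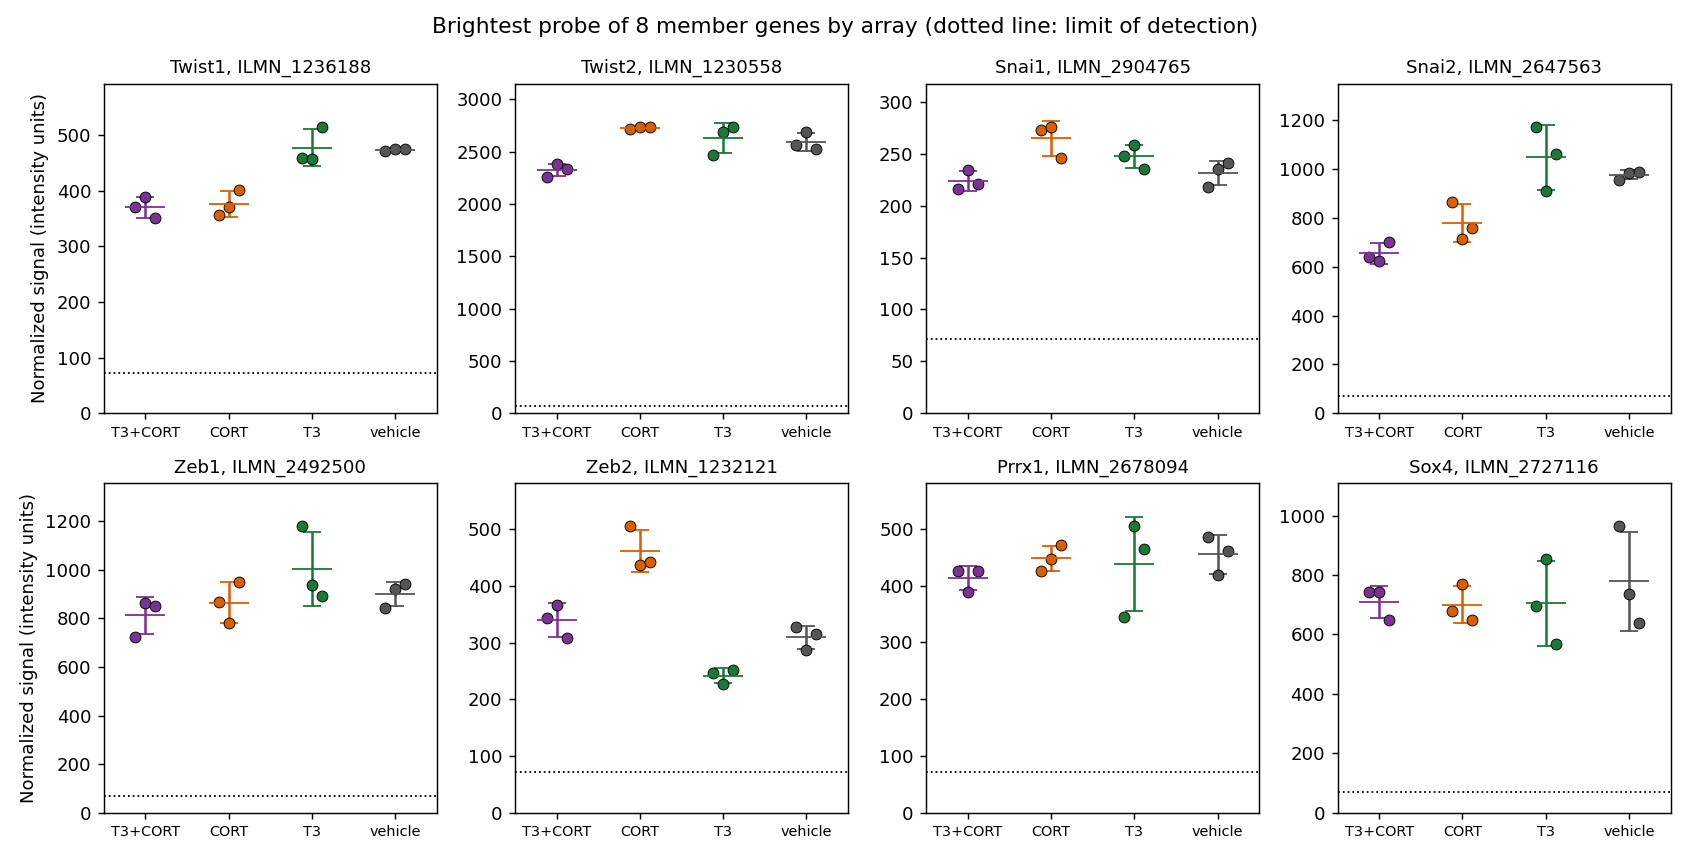
Normalized signal (intensity units) on each array for the brightest probe of 8 of the other genes, by group. Points are arrays, the long line is the mean and bars are 1 SD (n = 3), and the dotted line is the limit of detection. Twist1 and Snai2 are lower and Zeb2 is higher in CORT than in vehicle arrays, and Zeb2 is lower in T3+CORT than in CORT arrays.

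Zeb2 rose with CORT and was lower with T3+CORT than with CORT. Zeb2, also called SIP1, is a ZEB repressor with roles in neural crest and cortical development. At ILMN_1232121 the T3+CORT arrays had 343.8, 366.8 and 308.8 units, the CORT arrays 504.9, 437.6 and 442.3, the T3 arrays 247, 227.6 and 251.5, and the vehicle arrays 327.1, 287.1 and 314.4. The CORT arrays lay above and the T3 arrays below all others, and T3+CORT overlapped with vehicle. CORT versus vehicle was 0.58 (SE 0.10, limma, adjusted p = 0.000424), T3+CORT versus T3 was 0.49 (adjusted p = 0.00169) and T3+CORT versus CORT was -0.44 (adjusted p = 0.0463). T3 versus vehicle was -0.35 and did not pass (adjusted p = 0.429, unadjusted p = 0.0014). T3+CORT versus vehicle was 0.13, with a 95% interval of -0.07 to 0.33, and the interaction was -0.09, with an interval of -0.37 to 0.19. The call against CORT was lost, at -0.50 to -0.38 and adjusted p of 0.0555 to 0.326, without any 1 array of the vehicle, CORT or T3+CORT groups or without T3 replicate 3.

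A different Zeb2 probe, ILMN_1229830, had 83.7 to 106.8 units, was not called in any comparison and correlated at -0.22 with ILMN_1232121 over the 12 arrays. The 3 remaining Zeb2 probes lay between 52.4 and 72 units. The Zeb2 changes thus rest on 1 of 5 probes. Zeb1, the related repressor, had 723.2, 862.7 and 849.9 units in T3+CORT, 866.9, 779.3 and 948.7 in CORT, 1178.5, 939 and 893.7 in T3, and 842.7, 918.9 and 939.8 in vehicle arrays (ILMN_2492500). Only T3+CORT and T3 did not overlap, and that difference, -0.30, did not pass (limma, adjusted p = 0.0727). It passed without T3 replicate 2 or T3 replicate 3, at -0.38 to -0.34 (lowest adjusted p = 0.0394). The other Zeb1 probe was below the limit, at 52.1 to 64.5 units.

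Prrx1 had 6 tested probes, the most of any of the 10 genes. The brightest, ILMN_2678094 (344.9 to 504.4 units over the 12 arrays), ILMN_2614463 (337.5 to 452.6) and ILMN_3057018 (205.4 to 277), were called in no comparison, and the first 2 correlated at 0.74. Only ILMN_1227686, close to the limit, was called in 1 comparison, with 88.2, 86.3 and 85.6 units in T3+CORT against 97.4, 106.4 and 107 in T3 arrays (-0.26, limma, adjusted p = 0.0482). That call was lost, at -0.27 to -0.23 and adjusted p of 0.0536 to 0.121, without vehicle replicate 2, T3 replicate 2 or 3, or any 1 CORT or T3+CORT array. The remaining probes ranged from 73.3 to 98.7 units (ILMN_3134079) and from 62.7 to 74.4 units (ILMN_1248338). In T3+CORT versus vehicle the differences were -0.14 for ILMN_2678094, -0.16 for ILMN_2614463, -0.13 for ILMN_3057018, -0.03 for ILMN_1227686, 0.12 for ILMN_3134079 and -0.12 for ILMN_1248338, none past the threshold.

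Counted by overlap rather than by model, 8 of the 19 probes had every T3+CORT array below every vehicle array, against 18.3% of all tested probes. In T3+CORT versus CORT, 9 of 19 were lower without overlap, where 7.41% of all tested probes were. In T3+CORT versus T3, 8 of 19 were lower without overlap (14.8% of all) and 2 higher (13.9% of all). In CORT versus vehicle 3 were lower (17.9% of all) and 3 higher (16% of all), and in T3 versus vehicle 3 were lower (4.7% of all). Several probes share a gene, so the 19 are not separate observations.

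Genes related by family or pathway were taken from lists, with the brightest probe of each gene. By that rule 0.0718% of 12540 tested genes were called in T3 versus vehicle, 15.9% in CORT versus vehicle, 16.7% in T3+CORT versus vehicle, 0.47% in T3+CORT versus CORT and 18.1% in T3+CORT versus T3. Of the 16 other SOX genes, 10 were tested and 1 was called, Sox12, the remaining SoxC factor. Sox12 averaged 553 ± 29.1 units in T3+CORT, 697 ± 85.9 in CORT, 697 ± 68.8 in T3 and 785 ± 24.3 in vehicle cells (SD, n = 3 each). It fell with T3+CORT relative to vehicle (-0.51, limma, adjusted p = 0.00202) and to T3 (-0.33, adjusted p = 0.0301). The difference from CORT, also -0.33, did not pass (adjusted p = 0.308).

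The cartilage genes that SOX9 activates were mostly dim. Of 18, 11 were tested and 6 were below the limit on all arrays. Col2a1, the collagen of cartilage, averaged 82.3 units in T3+CORT, 82.1 in CORT, 82.8 in T3 and 81.3 in vehicle cells. Called lower were Col9a2 with CORT (-0.28) and with T3+CORT (-0.34), and Matn4 and Comp with CORT (-0.22 and -0.24), with adjusted limma p of 0.0327, 0.011, 0.0464 and 0.0408, and all 3 genes averaged under 90 units in each group. That made 3 of 11 lower with CORT and 1 with T3+CORT, beside 7.98% and 8.04% of all tested genes. Wwp2, which hosts a SOX9-induced microRNA, averaged 699.7 ± 44.3 units in T3+CORT, 847 ± 84.1 in CORT, 742 ± 50.1 in T3 and 704.5 ± 25.2 in vehicle cells, and was not called. The median log2 fold change of the 11 was -0.04 in T3+CORT versus vehicle.

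Most other transcription factors of mesenchyme and of epithelial-to-mesenchymal transition did not pass the test with CORT. Of 14 tested, 3 rose and 2 fell with CORT, where 7.95% of all tested genes rose and 7.98% fell. With T3+CORT relative to vehicle 3 rose and 2 fell, beside 8.65% and 8.04% of all tested genes, and 0 were called in T3+CORT versus CORT by limma. Osr1, a factor of kidney and limb mesenchyme, averaged 591 ± 28.5 units in T3+CORT, 725 ± 33.2 in CORT, 331 ± 71.0 in T3 and 349 ± 58.4 in vehicle cells (log2 fold change 1.07 with CORT, limma, adjusted p = 2e-05). Tead4, a DNA-binding partner of YAP and TAZ, averaged 279 ± 8.46 in T3+CORT, 323 ± 9.95 in CORT, 161 ± 10.9 in T3 and 169 ± 4.79 in vehicle cells (0.93 with CORT, adjusted p = 2.51e-07). Osr2 also rose with CORT (0.50, adjusted p = 0.000363). Tead1, which binds the same partners, fell with CORT (-0.56, adjusted p = 0.000868), with 618 ± 42.1 units in CORT and 912 ± 25.2 in vehicle cells, and so did Meox1 (-0.29, adjusted p = 0.0201), which averaged under 80 units in each group.

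Genes of the mesenchymal programme moved in both directions. Of 22 tested, 3 rose and 4 fell with CORT, where 7.95% of all tested genes rose and 7.98% fell. With T3+CORT relative to vehicle 1 rose and 3 fell, beside 8.65% and 8.04% of all tested genes. In T3+CORT versus T3, 1 rose and 6 fell, where 18.1% of all tested genes were called in either direction. Pdgfra, a growth factor receptor of mesenchymal cells, rose with CORT (0.78, limma, adjusted p = 0.000224) and with T3+CORT (0.47, adjusted p = 0.0123). Cd44, the hyaluronan receptor, fell with CORT (-0.39, adjusted p = 0.00413) and with T3+CORT (-0.63, adjusted p = 5.36e-05). The matrix genes Sparc and Tnc fell with CORT by 0.47 and 0.41 on the log2 scale (adjusted p = 0.00361 and 0.00416). Dcn, the matrix proteoglycan decorin, was the 1 gene of the list called in T3+CORT versus CORT, where 0.351% of all tested genes were lower, with 2653 ± 343 units in T3+CORT, 4135 ± 222 in CORT, 2642 ± 75.8 in T3 and 2924 ± 47.9 in vehicle cells (-0.65, adjusted p = 0.000542). It rose with CORT alone (0.50, adjusted p = 0.000627).

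Of 27 epithelial genes that SNAIL, ZEB and TWIST proteins repress, 13 were tested and 9 were below the limit on all arrays. Cdh1, which encodes E-cadherin, averaged 148 ± 9.82 units in T3+CORT, 192 ± 5.61 in CORT, 112 ± 11.2 in T3 and 128 ± 6.32 in vehicle cells (SD, n = 3 each). It rose with CORT (0.59, limma, adjusted p = 0.000199) and with T3+CORT relative to T3 (0.41, adjusted p = 0.00421). It was the only gene of the 13 called with CORT, where 15.9% of all tested genes were called. In T3+CORT versus T3, 2 of the 13 were higher, where 18.1% of all tested genes were called in either direction. Tjp1, which encodes the tight junction protein ZO-1, was higher in T3+CORT than in T3 cells (0.50, adjusted p = 0.0273), with 209 ± 21.0 units in T3+CORT and 150.1 ± 34.2 in T3 cells. T3+CORT versus CORT was -0.38 for Cdh1 and did not pass (adjusted p = 0.0966). Among 12 tested cofactors and turnover factors of SNAIL, ZEB and SOX9 proteins, 1 rose and 1 fell with CORT, and 1 fell with T3+CORT versus vehicle. These counts were near the shares of all tested genes (7.95% and 7.98% with CORT, and 8.04% lower with T3+CORT). Gsk3b, a kinase that marks SNAIL for degradation, rose with CORT (0.44, limma, adjusted p = 0.0371). A ubiquitin ligase subunit fell in each of 2 comparisons, Fbxl14 with CORT (-0.25, adjusted p = 0.0496) and Fbxl5 with T3+CORT versus vehicle (-0.30, adjusted p = 0.0198).

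**Figure D5:**
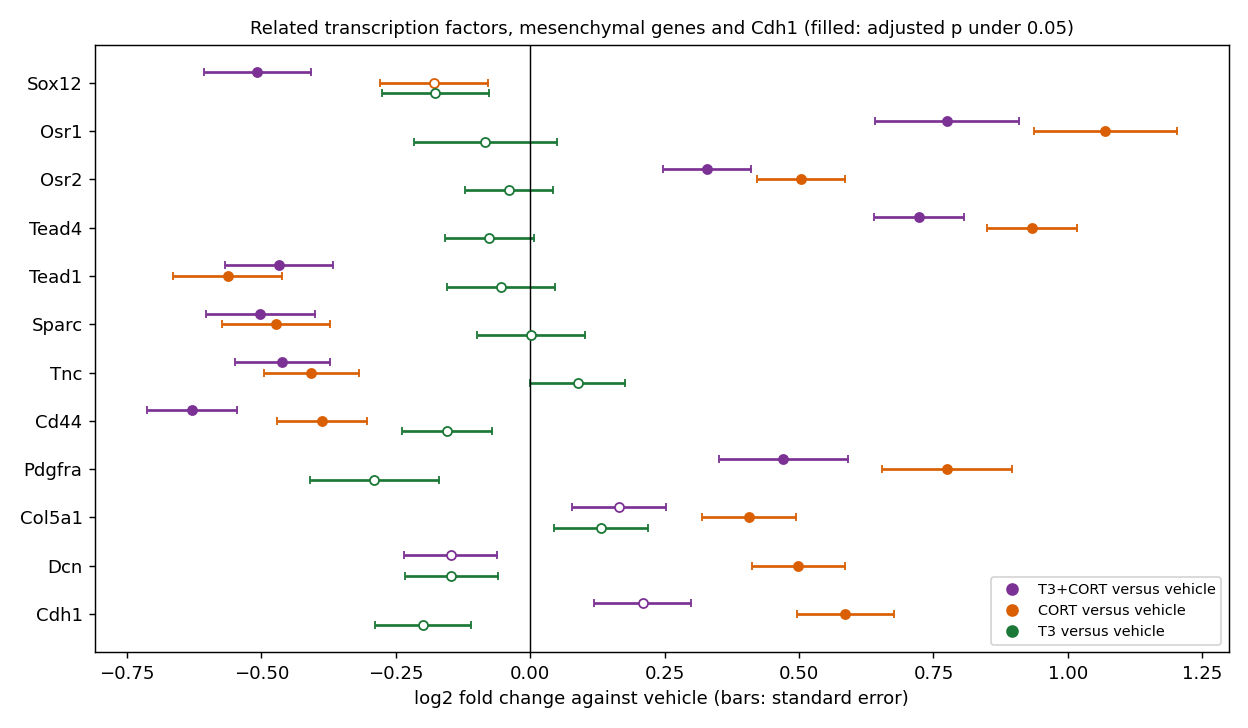
Log2 fold change against vehicle (points) and standard error (bars) of 12 related genes with T3+CORT, CORT and T3. Filled points have an adjusted limma p under 0.05. Osr1, Osr2, Tead4 and Pdgfra lie to the right and Tead1, Sparc, Tnc and Cd44 to the left with CORT and with T3+CORT, Dcn, Col5a1 and Cdh1 have a filled point for CORT, and Sox12 has one for T3+CORT. A filled point beside an open one is not a test of the difference between treatments.

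Some reference genes moved with the combined treatment. Of 8 tested, 4 were called lower in T3+CORT than in vehicle cells (Gapdh -0.24, Hprt -0.26, Ywhaz -0.37 and B2m -0.35) and 1 was called higher (Gusb 0.33). Of all tested genes, 8.04% were lower and 8.65% higher in that comparison. Ppia (0.02), the study's own PCR reference, Tbp (0.01) and Rplp0 (0.16) were not called. In CORT versus vehicle 0 were called, beside 15.9% of all tested genes. The summed signal of the reference genes on the array was 66739 to 67842 units in T3+CORT, 70017 to 72994 in CORT, 70353 to 74342 in T3 and 71937 to 74106 in vehicle arrays. Their part in the Sox9 difference was not tested.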

How the data were processed

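Total RNA of HT-22 cells was amplified, labelled with biotin and hybridized to Illumina Mouse WG-6 v2 arrays, 3 in each of 4 groups. The authors deposited probe intensity values that they had normalized by rank invariant normalization in BeadStudio. The 12 arrays share nearly 1 distribution, differing by at most 0.5 units at any rank. A table of values before normalization has 24 per-sample columns whose names match no sample label, so these, its detection p-values included, were not used. Groups came from the sample labels. Probes were named through the platform's gene annotation (34885 probes with 1 symbol, 18 with several, 10378 with none).

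The limit of detection (71.4 units) was the mode of all signals plus the one-sided 5% point of the spread mirrored from below the mode. Probes reaching it on 3 of 12 arrays were kept. Log2 intensity went into 1 limma (3.58.1, R 4.3.3) model of all 4 groups, with a mean-variance trend, 8 residual degrees of freedom and 6 contrasts, each adjusted over 25122 probes. On data simulated for the T3+CORT versus vehicle contrast over 25122 probes, 78% of 1.5-fold and 98% of 2-fold changes were recovered, and for the interaction 48% and 90%. The simulation changed 200 probes, while 3451 were called in the real T3+CORT versus vehicle contrast. These percentages therefore describe the simulated setting alone.

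All tested probes of the 10 genes were described. Of list genes, up to 4 past the threshold in a comparison were named by size of change, with Col2a1, Wwp2 and some cell markers added after their values were seen, and for likeness to Sox9 the 5 highest and 3 lowest coefficients. The 10 genes and all lists were chosen with earlier results of these data known. Alternatives changed the samples in the fit, trend, filter, background correction, normalization, array weights, replicate block, test and threshold, and left out each array in turn. Same-numbered arrays were checked for shared deviations: 6 of 18 such pairs correlated above 0.1 (range -0.202 to 0.385), so the numbers were not taken as pairs. Promoter windows came from RefSeq.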

Additional observations from a re-analysis of the deposited data

Results flagged for a closer look

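The response of Sox9 to the hormones together differed from the sum of its responses to each hormone, by a test of the difference itself. Sox9 was followed knowing that the study lists it, from these same arrays, as synergistically repressed, so the test is not independent of that list. At probe ILMN_2778151 this difference of differences was -0.66 on the log2 scale (SE 0.12, limma, adjusted p = 0.0419), with 2422 ± 118 units in T3+CORT, 3706.5 ± 417 in CORT, 3779 ± 182 in T3 and 3648 ± 177 in vehicle cells (SD, n = 3 each). All 3 T3+CORT arrays lay below all 9 others. At ILMN_3007428 the same quantity was -0.46 and did not pass (adjusted p = 0.626). The fold changes that the study printed for Sox9 lie near those of ILMN_3007428 here (0.95 with T3, 0.89 with CORT and 0.615 with T3+CORT). Its list rests on a call with both hormones and none with either alone, not on a difference of differences. The call at ILMN_2778151 was lost in 9 of the 12 fits that left out 1 array (without any vehicle or T3+CORT array, CORT replicate 2 or 3, or T3 replicate 3), at values of -0.70 to -0.59.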

How the results depend on the processing

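Under the 11 alternatives other than the unequal-variance test and the thresholds on unadjusted p, and with each array left out, the following calls were kept: both Sox9 probes in T3+CORT versus vehicle and versus T3, Sox9 ILMN_2778151 in T3+CORT versus CORT, Twist1 and Snai2 in T3+CORT versus vehicle and versus T3, and Zeb2 in CORT versus vehicle and T3+CORT versus T3. Snai2 in CORT versus vehicle was lost with no filter on dim probes and with cyclic loess, and Zeb2 in T3+CORT versus CORT with no filter and with normexp. Prrx1 ILMN_1227686 in T3+CORT versus T3 was lost with only the compared groups in the fit, no filter, normexp, cyclic loess and the replicate block.

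An unequal-variance test of the linear signals was also run. The methods name it for the combined signal against the sum of the single-hormone signals and not for these comparisons. After adjustment 0 of the 19 probes passed it in CORT versus vehicle, T3+CORT versus vehicle, T3+CORT versus CORT and T3+CORT versus T3. Of all tested probes, 29, 18, 0 and 1 passed it in the same order. So few passed on the whole array that 0 of 19 says little about the limma calls. The Sox9 values under this test, ILMN_2778151 first, were -0.59 and -0.71 against vehicle, -0.61 and -0.54 against CORT and -0.64 and -0.63 against T3. None was past the threshold. At an unadjusted limma p under 0.02 with at least 1.5-fold, the counts were 0 in CORT versus vehicle, 2 in T3+CORT versus vehicle, 1 in T3+CORT versus CORT and 3 in T3+CORT versus T3. Without the fold limit, which the study did not set for these comparisons, they were 5 in T3+CORT versus CORT and 8 in T3+CORT versus T3. That alternative was added here after seeing the data. With 1 array left out at a time, the T3+CORT versus CORT count ranged from 1 to 3 and the interaction count from 0 to 1. In the same fits Sox9 ILMN_3007428 was -0.18 to 0.024 in T3 versus vehicle and -0.60 to -0.46 in T3+CORT versus CORT, and Sox9 ILMN_2778151 was -0.051 to 0.11 in CORT versus vehicle and -0.75 to -0.59 in the interaction. The sign changes concern differences that were never past the threshold.

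The replicate numbers did not pair the arrays, and 5 of 12 arrays were closest to an array of their own number. With the replicate number as a block, the counts of called probes were 0 for T3, 3 for CORT and 4 for T3+CORT against vehicle, 3 for T3+CORT against CORT, 5 for T3+CORT against T3 and 1 for the interaction. The block ended the call of Prrx1 ILMN_1227686 in T3+CORT versus T3 and no other call of these probes. A fixed limit of 100 units, chosen after seeing the data, left 15255 probes and the same counts of 0, 3, 4, 3, 6 and 1. Sox11 lay near the limit of detection, which bounds what can be measured for it. Over all tested probes, the called counts and their range over the alternatives were 16 (9 to 35) in T3 versus vehicle, 3361 (2828 to 5058) in CORT versus vehicle, 3451 (2984 to 5337) in T3+CORT versus vehicle, 91 (84 to 165) in T3+CORT versus CORT, 3745 (2059 to 4013) in T3+CORT versus T3 and 17 (17 to 34) in the interaction. Leaving out 1 array gave 10 to 26, 1996 to 4686, 2066 to 4712, 41 to 170, 2471 to 3795 and 2 to 21 called probes in the same order, with the lowest counts without vehicle replicate 3, 1, 1, CORT replicate 2, T3+CORT replicate 2 and vehicle replicate 2. The cause of these differences was not tested.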
